A study of Mus musculus with 18 samples.

Results

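The complement genes C1ra, C4b, C2, Cfb, C3, Serping1 and Cd55 were followed through RNA-seq of the mouse prostate. They were chosen by name and are 7 of the 55469 genes in each of the deposited tables. RNA was taken from ventral and lateral lobes of male mice, with 3 libraries in each of 6 groups and 18 in all. The paper writes the background strain of these mice as "C56NL/6N". The groups were WT, KO and A537T mice, each at 10 and 30 weeks of age. Elac2 encodes the ribonuclease that trims the 3′ ends of precursor tRNAs in the nucleus and in mitochondria. KO mice were homozygous for an Elac2 allele whose exon 8 is excised by Pb-Cre, a recombinase driven by the probasin promoter of prostate epithelium, and the lobes also hold stromal, vascular and immune cells, in which this promoter is not expected to be active. A537T mice were homozygous in the whole body for the A537T change of alanine to threonine, introduced with CRISPR-Cas9. WT mice carried neither allele by their label, ELAC2+/+. The paper describes its mice as matched by age and litter, but 1 WT group per age served both lines and litters were not labelled. None of these mice was labelled as carrying the TRAMP tumour transgene. At 10 weeks the libraries were 10AF to 12AF for WT, 13AF to 15AF for KO and 16AF to 18AF for A537T. At 30 weeks they were 1AF to 3AF for WT, 4AF to 6AF for KO and 7AF to 9AF for A537T.

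Complement is a cascade of plasma and tissue proteases that marks cells and microbes for removal and draws in leukocytes. The classical pathway starts when C1q binds antibody or damaged cells and activates the proteases C1r and C1s, which cleave C4 and C2 into the classical C3 convertase. The alternative pathway runs on factor B, and both routes meet at C3, whose fragments coat surfaces and feed the terminal pathway. The liver makes most plasma complement, but epithelial cells, fibroblasts and macrophages transcribe these genes locally, and interferons and acute-phase cytokines are known inducers of several of them. In this group C1ra encodes the initiating protease C1r, C4b and C2 encode the convertase components and Cfb encodes factor B. C3 encodes the central component, Serping1 the inhibitor of C1r and C1s, and Cd55 the membrane protein that breaks up C3 convertases.

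C4b, Cfb and C2 lie close together in the class III region of the major histocompatibility complex (GRCm38, GENCODE vM21). C4b is at chr17:34728380-34743882, Cfb at chr17:34856374-34862518 and C2 at chr17:34862604-34898265, all on the minus strand, and Cfb ends 85 bases before C2 begins. The predicted read-through gene Gm20547 overlaps both Cfb and C2 and was at 0 reads in every library. C3 is on the same chromosome at chr17:57203970-57228136 (minus strand), C1ra at chr6:124512405-124523443 (plus strand), Serping1 at chr2:84765387-84775444 (minus strand) and Cd55 at chr1:130439027-130462744 (minus strand). C4b and C1ra have near-identical neighbours, C4a and C1rb, between which the authors' counting may have divided reads. C4a stayed at 2.1 to 15.8 normalized counts, far below C4b, whereas C1rb reached 3136 in single libraries, so values of C1ra are less certain.

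Promoter sequences were given in RefSeq (GRCm38.p6) for 3 of the 7 genes, C3, C1ra and Cd55. C4b, Cfb, C2 and Serping1 had no entry. The 250 bases before the RefSeq start are shown for C3, which had the largest difference of the 7 genes in A537T mice at 30 weeks, and for Cd55, whose KO libraries at 10 weeks all lay below WT. Both are written 5′ to 3′ on the minus strand, C3 from chr17:57228137-57228386 and Cd55 from chr1:130462745-130462994. Capitals mark a match to the C/EBP motif TTGCNNAA, which is bound by acute-phase transcription factors.
C3: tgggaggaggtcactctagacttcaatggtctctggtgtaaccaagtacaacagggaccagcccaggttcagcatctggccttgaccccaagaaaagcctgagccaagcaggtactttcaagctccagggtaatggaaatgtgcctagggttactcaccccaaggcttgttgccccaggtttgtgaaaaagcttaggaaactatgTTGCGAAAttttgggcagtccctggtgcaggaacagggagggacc
Cd55: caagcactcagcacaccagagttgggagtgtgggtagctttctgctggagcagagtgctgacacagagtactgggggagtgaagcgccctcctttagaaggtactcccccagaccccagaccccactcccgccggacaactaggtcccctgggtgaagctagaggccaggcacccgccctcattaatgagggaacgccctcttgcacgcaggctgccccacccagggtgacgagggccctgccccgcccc
The match in C3 covers bases 45 to 38 before the start, and a match on either strand is present in 9.56% of the 32851 RefSeq promoters. No match to the interferon motifs ISRE and GAS (TTCNNNGAA), or to the kappaB motif, was found on either strand of the C3, C1ra or Cd55 windows. These motifs are present in 2.98%, 7.02% and 7.25% of all promoters. Most of the C1ra window (chr6:124512371-124512620) lies inside the GENCODE gene, which starts at base 124512405, so little sequence upstream of that start was searched. The single match overlapped no other motif.

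Each value is a normalized count, which is a gene's estimated read count divided by the size factor of its library. This was done within a table of 1 mutant group and its WT group. The estimates themselves differed between the 2 tables of a WT library, as for C3 in 10AF, with 1935 beside KO and 1908 beside A537T. Reads recovered from the tables came to 6569642 to 11225281 per library, and the 7 genes had between 21 (C2 in 15AF) and 2310 (C3 in 8AF). Elac2 had 115 ± 4.09 normalized counts in KO against 144 ± 21.1 in WT at 10 weeks and 124 ± 26.5 against 166 ± 24.7 at 30 weeks (SD, n = 3), neither passing by limma, and 165 ± 7.55 and 141 ± 41.5 in A537T at 10 and 30 weeks. Counts per gene hold no information on exon 8. Luminal secretory markers of the prostate were present in every library. Marker sums also showed other tissues. Seminal vesicle genes took 6.32 to 9.17% of normalized counts in 4AF and 6AF (KO) and 7AF and 9AF (A537T) at 30 weeks and no more than 0.000335% in the other 5 libraries of that age. At 10 weeks they took 6.55 to 10.3% in KO, 4.64 and 1.76% in WT libraries 10AF and 11AF and almost none in 12AF, and genes of skeletal muscle made up 3.98 to 12.7% in WT. By limma 0 genes passed an adjusted p of 0.05 in any of the 4 comparisons, although 2930, 973, 1616 and 2016 genes had an unadjusted p under 0.05 in KO and A537T at 10 weeks and in KO and A537T at 30 weeks. On recovered reads edgeR also called 0, and DESeq2 called 715, 90, 285 and 476.

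All 7 genes had reads in every library, and levels were divided by transcript length to compare genes. Per kilobase of transcript, WT prostates at 30 weeks held most Serping1, at 306 ± 38.1 normalized counts (SD, n = 3), followed by C3 at 124 ± 36.2. The ranges of these 2 genes did not touch, nor did those of C3 and the next gene. Cd55 had 60.7 ± 4.0, C1ra 46 ± 12 and C4b 41.2 ± 9.9 per kilobase in the KO table. Cd55 overlapped C1ra there but not in the A537T table of the same WT libraries, C1ra overlapped C4b in both, and C4b lay apart from the next gene, Cfb, in both. Cfb and C2 were lowest, at 20.5 ± 3.85 and 17.2 ± 3.15 per kilobase, and overlapped each other. In A537T at 30 weeks the order was unchanged, but C3 reached 335 ± 92.8 per kilobase and its range then overlapped that of Serping1 at 379.5 ± 78.8. At 10 weeks Serping1 and C3 were also the top 2 genes and Cfb and C2 the lowest 2 in WT, KO and A537T.

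**Figure D1:**
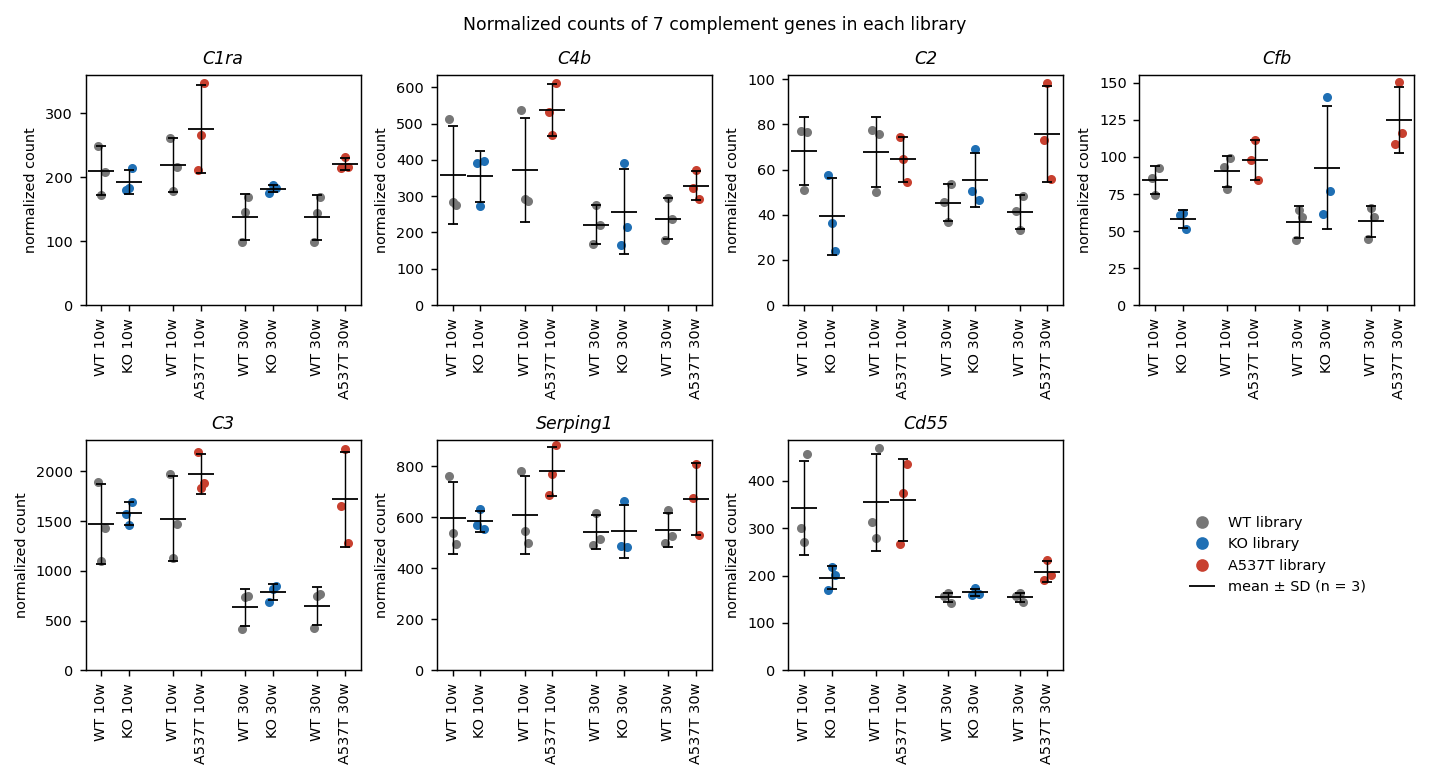
Normalized count (y axis, from 0) of each of the 7 complement genes in every library. Points are libraries grouped along the x axis by table, with WT in grey, KO in blue and A537T in red, and bars give the mean and SD of 3 libraries. At 30 weeks all 3 A537T points lie above all 3 WT points for C1ra, C2, Cfb, C3 and Cd55, and at 10 weeks all 3 KO points lie below the WT points for Cfb and Cd55. WT libraries are drawn in 2 tables of the same age.

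In A537T prostates at 30 weeks the log2 fold changes of all 7 genes were above 0, with a median of 0.71, and the groups of C4b and Serping1 overlapped WT. The central component C3 and factor B differed most, with means 2.64-fold and 2.21-fold those of WT, and C2, C1ra and Cd55 had smaller fold changes without overlap. For 5 of the 7 genes every A537T library lay above every WT library, where 9.18% of all genes tested did so in this direction and 9.4% did so in the other. None of the 7 passed an adjusted p of 0.05 by limma, against 0% of all genes, and 6 of 7 had an unadjusted p under 0.05, against 13.6%. With DESeq2 on recovered reads 2 of 7 passed, C3 and Cfb, against 3.22% of all genes, and with edgeR 0. A larger share of cells that transcribe a gene and more transcript per cell cannot be told apart in RNA of whole lobes.

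C3, the protein on which all complement routes meet, had normalized counts of 1649 in 7AF, 2227 in 8AF and 1282 in 9AF in A537T at 30 weeks, and 431, 751 and 771 in WT libraries 1AF, 2AF and 3AF. The lowest A537T library was above the highest WT library, and the highest, 8AF, was the A537T library without seminal vesicle RNA. The log2 fold change of C3 was 1.41 ± 0.28 (SE, limma adjusted p = 0.21). DESeq2 gave an adjusted p of 0.000118, and over the 17 alternatives the adjusted p of C3 ran from 0.000118 to 0.659. Leaving out 1 library at a time gave log2 fold changes from 1.14 to 1.60, and the fit without 8AF passed (adjusted p = 0.044 by limma). That fit called 1224 of 14801 genes, and the A537T libraries left in it both held seminal vesicle RNA, unlike the WT libraries. With 7AF and 9AF left out together, the 2 A537T libraries with seminal vesicle RNA, the log2 fold change was 1.82, from the single A537T library 8AF, which is assumed to vary like the WT libraries.

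Cfb, the protease precursor of the alternative pathway, followed C3. Its normalized counts were 108 in 7AF, 150.4 in 8AF and 116 in 9AF, and 44.9, 65.4 and 59.4 in WT libraries 1AF, 2AF and 3AF. Again no A537T library reached down to the WT range, and 8AF was highest. The log2 fold change of Cfb was 1.13 ± 0.21 (SE, limma adjusted p = 0.184), with an adjusted p of 0.00518 from DESeq2 and a range from 0.00518 to 0.627 over its 16 alternatives. It ran from 0.98 to 1.24 when 1 library was left out, and passed without 8AF (adjusted p = 0.0463 by limma), where 1224 of 14801 genes did. It was 1.41 from 8AF alone, with 7AF and 9AF left out together.

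Of the classical pathway genes, C1ra had normalized counts of 214 in 7AF, 231 in 8AF and 216 in 9AF in A537T, and 98.7, 145 and 168 in WT libraries 1AF, 2AF and 3AF. The A537T values lay close together and above the WT range. The log2 fold change of C1ra was 0.71 ± 0.20 (SE, limma adjusted p = 0.274). C2, the protease of the classical convertase, had normalized counts of 73.3 in 7AF, 98.3 in 8AF and 55.9 in 9AF, and 41.7, 33.3 and 48.5 in WT libraries 1AF, 2AF and 3AF. The groups did not overlap, though 9AF came within 7.37 of the highest WT library, and the log2 fold change was 0.85 ± 0.27 (SE, limma adjusted p = 0.295). C4b, the larger convertase subunit, had 322 in 7AF, 371 in 8AF and 292 in 9AF, and 180.5, 294 and 238 in WT libraries 1AF, 2AF and 3AF. Here 9AF fell just under the highest WT library, and the log2 fold change was 0.49 ± 0.20 (SE, limma adjusted p = 0.348).

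The 2 inhibitors differed less. Cd55 had normalized counts of 189.8 in 7AF, 232 in 8AF and 200.4 in 9AF in A537T, and 156, 163 and 144 in WT libraries 1AF, 2AF and 3AF. The groups did not overlap, and the log2 fold change of Cd55 was 0.42 ± 0.13 (SE, limma adjusted p = 0.295). Serping1 had 674 in 7AF, 809 in 8AF and 530.1 in 9AF, and 497, 626 and 525 in WT libraries 1AF, 2AF and 3AF. The lowest A537T library lay inside the WT range, and the log2 fold change of 0.27 ± 0.17 (SE, limma adjusted p = 0.503) was the smallest of the 7.

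**Figure D2:**
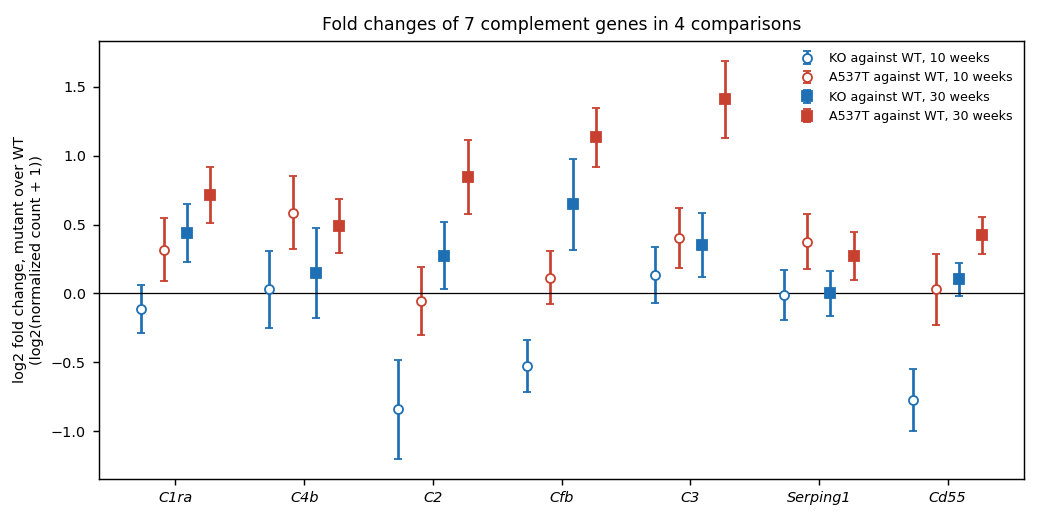
Log2 fold change of mutant over WT (y axis, on log2(normalized count + 1)) for each of the 7 genes (x axis) in 4 comparisons, with KO in blue, A537T in red, 10 weeks as open circles and 30 weeks as filled squares. Bars are standard errors from limma. C3 and Cfb in A537T at 30 weeks are highest, at 1.41 and 1.13, and C2, Cd55 and Cfb in KO at 10 weeks are lowest, at -0.84, -0.77 and -0.53.

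KO prostates at 30 weeks were compared with the same 3 WT libraries. All 7 log2 fold changes were above 0, with a median of 0.28, and none passed by limma (0% of all genes), DESeq2 (1.93% of all genes) or edgeR. None had an unadjusted p under 0.05, against 11% of all genes. Only C1ra had groups that did not overlap, with KO higher, as had 7.92% of all genes, and 0 of 7 lay below WT, against 8.41%. C1ra had normalized counts of 176 in 4AF, 187 in 5AF and 183 in 6AF, and 98.1, 145 and 168 in WT libraries 1AF, 2AF and 3AF, a log2 fold change of 0.44 ± 0.21 (SE, limma adjusted p = 0.485).

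Library 5AF decided several of the other KO values. Cfb had normalized counts of 61.5 in 4AF, 140.2 in 5AF and 76.8 in 6AF in KO, and 44.2, 64.5 and 59.4 in WT libraries 1AF, 2AF and 3AF. C4b had 166 in 4AF, 389.9 in 5AF and 216 in 6AF, and 169, 275 and 221 in WT libraries 1AF, 2AF and 3AF. C2 had 50.4 in 4AF, 69 in 5AF and 46.5 in 6AF, and 45.8, 36.9 and 53.5 in WT libraries 1AF, 2AF and 3AF. In all 3 genes 5AF, the KO library without seminal vesicle RNA, was the highest of the 6 libraries, and the other 2 KO libraries lay in or near the WT range. The log2 fold changes were 0.65 ± 0.33 (SE, limma adjusted p = 0.51) for Cfb, 0.15 ± 0.33 (SE, limma adjusted p = 0.888) for C4b and 0.28 ± 0.24 (SE, limma adjusted p = 0.688) for C2. Without 5AF they were 0.31, -0.20 and 0.11, so that C4b turned negative. With 4AF and 6AF left out together they were 1.33, 0.84 and 0.61, each from 1 KO library that is assumed to vary like the WT libraries. Macrophage markers were also highest in 5AF, with a summed level of 2057 normalized counts against 1186 and 1378 in 4AF and 6AF, and their part in these values was not tested.

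C3 had normalized counts of 691 in 4AF, 819 in 5AF and 847 in 6AF in KO at 30 weeks, and 419.8, 734 and 749 in WT libraries 1AF, 2AF and 3AF. The lowest value was that of WT library 1AF, and the log2 fold change of C3 was 0.35 ± 0.23 (SE, limma adjusted p = 0.6), or 0.08 without 1AF. Serping1 had 488 in 4AF, 664 in 5AF and 482 in 6AF, and 491, 617 and 515 in WT libraries 1AF, 2AF and 3AF, with a log2 fold change of 0.00 ± 0.16 (SE, limma adjusted p = 0.999). Cd55 had 159.9 in 4AF, 173 in 5AF and 162 in 6AF, and 156, 162 and 143 in WT libraries 1AF, 2AF and 3AF, with a log2 fold change of 0.10 ± 0.12 (SE, limma adjusted p = 0.771). The KO and WT ranges of these 3 genes overlapped.

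In KO at 10 weeks C2, Cd55 and Cfb had log2 fold changes of -0.84, -0.77 and -0.53, none of which passed by limma, DESeq2 or edgeR, and the other 4 genes were within 0.13 of WT on the log2 scale. For 2 of the 7 genes, Cd55 and Cfb, every KO library lay below every WT library, as was the case for 14.3% of all genes. For 0 of 7 every KO library lay above, against 11.7% of all genes. By limma 0 of 7 passed (0% of all genes) and 2 of 7 had an unadjusted p under 0.05 (19.4% of all genes). By DESeq2 0 of 7 passed against 4.74% of all genes, and by edgeR 0.

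Cd55 had normalized counts of 168 in 13AF, 218 in 14AF and 201 in 15AF in KO at 10 weeks, and 300.3, 271 and 456 in WT libraries 10AF, 11AF and 12AF. All 3 KO values were lower than the lowest WT value, and the highest was WT library 12AF. The log2 fold change of Cd55 was -0.77 ± 0.22 (SE, limma adjusted p = 0.183), with an adjusted p of 0.0583 from DESeq2, which was also the lowest of the 16 alternatives, while the highest was 0.999. Without 12AF it was -0.55.

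Cfb had normalized counts of 61 in 13AF, 62.1 in 14AF and 51.4 in 15AF, and 86.1, 74.1 and 92.8 in WT libraries 10AF, 11AF and 12AF, again with no overlap. The log2 fold change of Cfb was -0.53 ± 0.19 (SE, limma adjusted p = 0.214). C2 had 57.6 in 13AF, 36.3 in 14AF and 24 in 15AF, and 77.3, 50.8 and 76.5 in WT libraries 10AF, 11AF and 12AF. KO library 13AF reached into the WT range, 14AF and 15AF did not, and the log2 fold change of C2 was -0.84 ± 0.36 (SE, limma adjusted p = 0.262). It was -0.54 without 15AF, where C2 rested on 21 reads.

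These KO libraries also differed from WT in tissue content. Genes of skeletal muscle held 0.116 to 2.09% of the library in KO and 3.98 to 12.7% in WT, with all 20 listed genes lower in KO. Summed seminal vesicle genes were 533961 to 773071 normalized counts in KO against 83.6 to 371593 in WT. Summed luminal markers were 36969.9 to 288191 in KO against 296902 to 1383610 in WT. Neither range overlapped. The luminal list as a whole differed less than its sum. Of its 11 genes 7 had log2 fold changes below 0 and 4 above, with a median of -0.13. Without overlap 2 were lower and 1 higher, against 14.3% and 11.7% of all genes. Its most abundant genes, Sbp and Spink1, averaged 601232 and 156588 normalized counts over the 4 comparisons. Macrophage markers summed to 1162 to 1235 in KO against 1310.1 to 1801 in WT, again without overlap, with 7 of 9 tested lower, and all 8 adipocyte markers were lower. With a skeletal muscle score as covariate the log2 fold changes were -0.47 for Cd55, -0.35 for Cfb and -0.72 for C2 (adjusted p = 0.999 from limma for each). Scaling libraries to the same total moved the median of all genes from -0.01 to 0.20, and Cd55, Cfb and C2 were then at -0.56, -0.32 and -0.63. The part of tissue content in these differences was not tested beyond that.

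The other 4 genes overlapped between KO and WT at 10 weeks. C3 had normalized counts of 1576 in 13AF, 1464 in 14AF and 1696 in 15AF in KO, and 1893, 1099 and 1427 in WT libraries 10AF, 11AF and 12AF, with a log2 fold change of 0.13. C4b had 392 in 13AF, 274 in 14AF and 398 in 15AF, and 513, 283 and 276 in WT libraries 10AF, 11AF and 12AF, with a log2 fold change of 0.03. The single high WT library for both was 10AF. C1ra had 180.4 in 13AF, 183 in 14AF and 214 in 15AF, and 249, 172 and 208 in WT libraries 10AF, 11AF and 12AF, a log2 fold change of -0.11. Serping1 had 568 in 13AF, 631 in 14AF and 552 in 15AF, and 759, 538 and 494 in WT libraries 10AF, 11AF and 12AF, a log2 fold change of -0.01. For these 4 genes limma gave adjusted p values between 0.732 and 0.982, and C1ra and Serping1 turned to 0.10 and 0.20 when libraries were scaled to the same total.

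In A537T at 10 weeks all 7 genes overlapped with WT, where 5.58% of all genes were higher and 6.34% lower without overlap. None passed by limma (0% of all genes), DESeq2 (0.595% of all genes) or edgeR, and none had an unadjusted p under 0.05, against 6.43% of all genes. The median log2 fold change was 0.32, with 6 genes above 0. C4b had normalized counts of 533 in 16AF, 467 in 17AF and 611 in 18AF in A537T, and 538, 291 and 285 in WT libraries 10AF, 11AF and 12AF, a log2 fold change of 0.59 ± 0.26 (SE, limma adjusted p = 0.746). C3 had 2199 in 16AF, 1832 in 17AF and 1885 in 18AF, and 1976, 1126 and 1469 in WT libraries 10AF, 11AF and 12AF, a log2 fold change of 0.41 ± 0.22 (SE, limma adjusted p = 0.749). In both genes 11AF and 12AF were below all A537T libraries, and the third WT library, 10AF, lay within the A537T range.

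Serping1 had normalized counts of 688 in 16AF, 771 in 17AF and 881 in 18AF, and 782, 544 and 501 in WT libraries 10AF, 11AF and 12AF, and C1ra had 212 in 16AF, 266 in 17AF and 348 in 18AF, and 262, 178 and 216 in WT libraries 10AF, 11AF and 12AF. Their log2 fold changes were 0.38 and 0.32, and both turned slightly negative (-0.01 and -0.03) with the skeletal muscle score as covariate. Cfb had 97.9 in 16AF, 111 in 17AF and 84.7 in 18AF, and 93.2, 78.7 and 99.1 in WT libraries 10AF, 11AF and 12AF. C2 had 74.5 in 16AF, 64.7 in 17AF and 54.5 in 18AF, and 77.7, 50.1 and 75.6 in WT libraries 10AF, 11AF and 12AF. Cd55 had 267 in 16AF, 375 in 17AF and 436 in 18AF, and 314, 278 and 469.8 in WT libraries 10AF, 11AF and 12AF. The groups of Cfb, C2 and Cd55 overlapped closely, with log2 fold changes of 0.11, -0.05 and 0.03. Scaling to the same total moved the median of all genes from 0.01 to 0.15 in this comparison and C2 to 0.08. All 20 skeletal muscle genes had log2 fold changes below 0, with sums that overlapped WT. Seminal vesicle genes took 0.191, 0.136 and 0.0374% of normalized counts in 16AF, 17AF and 18AF. In WT libraries 10AF, 11AF and 12AF they took 4.46, 1.70 and 0.000758%, a range that overlapped A537T. Library 18AF had the highest fibroblast and smooth muscle sums, 23078.5 and 68300.4 normalized counts. Among A537T libraries C4b, C1ra, Serping1 and Cd55 were highest in 18AF, C3 and C2 in 16AF and Cfb in 17AF. The part of tissue content in these values was not tested further.

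For each gene the difference from WT at 30 weeks was set against that at 10 weeks, each taken within its own table. Genotypes were exchanged among the libraries of each age (exact permutation test, 2-sided, 400 arrangements, adjusted over 14 tests). The exchange assumes no difference from WT at either age. Its p values therefore do not test whether a difference present at both ages was equal. In KO the log2 fold change of Cfb was higher by 1.17 at 30 than at 10 weeks (exact p = 0.01, adjusted p = 0.105), that of Cd55 by 0.88 (exact p = 0.015, adjusted p = 0.105) and that of C2 by 1.12 (exact p = 0.05, adjusted p = 0.187). In A537T Cfb was higher by 1.02, C3 by 1.01 and C2 by 0.90, with adjusted p = 0.187, 0.39 and 0.187 from the same exact test. C1ra was higher by 0.55 in KO and 0.40 in A537T. C4b and Serping1 moved least, by 0.12 and 0.01 in KO and by -0.10 and -0.10 in A537T. None of the 14 differences passed after adjustment. The smallest exact p that 400 arrangements allow is 0.005, so a lone difference could not have passed an adjustment over 14 tests. Each table was normalized on its own, so levels at the 2 ages were not tested against each other. Side by side, C3 in WT had 1893, 1099 and 1427 normalized counts at 10 weeks and 419.8, 734 and 749 at 30 weeks, and Cd55 had 300.3, 271 and 456 and 156, 162 and 143.

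**Figure D3:**
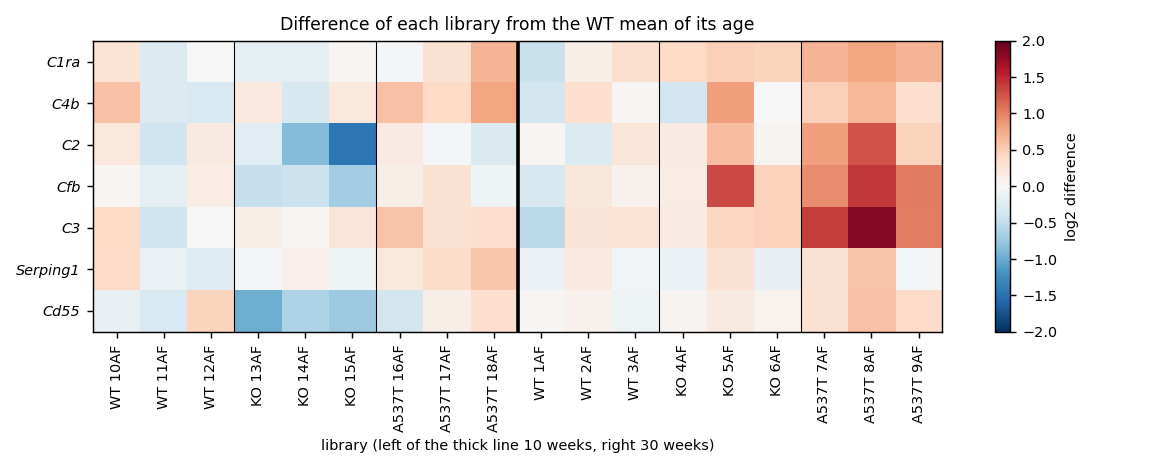
Difference of each library (columns) from the mean of the WT libraries of its age on the log2 scale, for the 7 genes (rows). WT libraries are averaged over the 2 tables that hold them. Red is higher and blue lower than WT, and libraries 7AF to 9AF are red for C3 and Cfb, 5AF for Cfb, and 13AF to 15AF blue for Cd55.

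Across the 18 libraries, taken as differences from the WT mean of their table, the neighbours Cfb and C2 had one of the closest patterns (r = 0.85, rho = 0.76, r = 0.80 without the 2 libraries farthest from the median). C4b and Serping1 had r = 0.83 and C3 and C1ra r = 0.81. C4b lies in the same cluster of genes as Cfb and C2 but had r = 0.51 with Cfb and 0.36 with C2. The lowest of the 21 pairs was C4b with Cd55 (r = 0.25). The libraries share WT means and tissue content, so these values describe the 18 libraries only.

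Among 9617 genes with a mean of at least 50 in each table, those most like each of the 7 were listed by the same measure. For C3 they were Ifi203 (r = 0.92), Gsn (r = 0.89) and Slc12a4 (r = 0.88). Ifi203 is an interferon-inducible gene and Gsn encodes the actin-severing protein gelsolin. For Cfb they were Lyz2 (r = 0.95), Gvin1 (r = 0.93) and C1qc (r = 0.92), where Lyz2 encodes the lysozyme of macrophages and neutrophils, Gvin1 an interferon-inducible GTPase and C1qc a chain of C1q. For C2 they were Cfb (r = 0.85), Slfn5 (r = 0.85) and Zbtb7b (r = 0.85). For C1ra they were Lsp1 (r = 0.93), Rnase4 (r = 0.90) and Slc12a4 (r = 0.90), with Lsp1 a leukocyte-specific actin-binding protein. For C4b they were Gnai1 (r = 0.85), Cyth4 (r = 0.85) and Lbp (r = 0.85), where Lbp encodes the lipopolysaccharide-binding protein. For Serping1 they were Plekho2 (r = 0.86), Lix1l (r = 0.84) and C4b (r = 0.83), and for Cd55 they were Tmtc1 (r = 0.89), Tmem43 (r = 0.88) and Itpripl2 (r = 0.87).

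The other 51 complement genes were counted by role. In A537T at 30 weeks 28 of them reached the minimum level, 22 had a log2 fold change above 0 with a median of 0.59, and 11 were higher in every A537T library than in any WT library, with 0 lower. By limma 0 of 28 passed, 10 had an unadjusted p under 0.05, edgeR called 0 and DESeq2 called 7, all higher. Over all genes 9.18% were higher without overlap, 13.6% had an unadjusted p under 0.05 and DESeq2 called 3.22%. Log2 fold changes above 0 were found in 4 of 7 tested classical initiation genes, 2 of 3 tested lectin genes, 4 of 4 tested alternative and terminal genes, 6 of 8 tested regulators and 6 of 6 tested receptors. In KO at 30 weeks 30 were tested, with a median of 0.44, 9 higher and 0 lower without overlap, 0 passing by limma or edgeR, 7 with an unadjusted p under 0.05 and 2, Clu and Cr2, called by DESeq2, where the shares of all genes were 7.92% higher without overlap, 11% and 1.93%. At 10 weeks 27 were tested in each line, with medians of 0.03 in KO and 0.17 in A537T. DESeq2 called 1 in each, Clu in KO (4.74% of all genes) and Cfd in A537T (0.595% of all genes), while limma and edgeR called 0. Without overlap 2 were higher and 4 lower in KO, against 11.7% and 14.3% of all genes. In A537T 2 were higher and 1 lower, against 5.58% and 6.34% of all genes. In KO 4 had an unadjusted p under 0.05 (19.4% of all genes) and in A537T 3 (6.43% of all genes).

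Of the classical initiation genes, the 3 chains of C1q, which is made largely by macrophages, were higher in A537T at 30 weeks. C1qa had normalized counts of 265 in 7AF, 394 in 8AF and 187 in 9AF, and 152, 127 and 124 in WT libraries 1AF, 2AF and 3AF. C1qc had 193 in 7AF, 323 in 8AF and 143 in 9AF, and 79.4, 99.8 and 105 in WT libraries 1AF, 2AF and 3AF. C1qb had 197 in 7AF, 343 in 8AF and 138 in 9AF, and 107, 98.6 and 106 in WT libraries 1AF, 2AF and 3AF. As for C3 and Cfb, 8AF was highest and the groups did not overlap. Log2 fold changes of C1qa, C1qb and C1qc were 1.01, 1.01 and 1.13 (adjusted p = 0.272, 0.292 and 0.272 from limma, and 0.016, 0.0381 and 0.015 from DESeq2). C1s1, the protease that C1r activates, had 447 in 7AF, 496 in 8AF and 469 in 9AF, and 239, 331 and 271 in WT libraries 1AF, 2AF and 3AF. Its log2 fold change was 0.76 ± 0.14 (SE, limma adjusted p = 0.184), with an adjusted p of 0.00266 from DESeq2. In KO at 30 weeks the values of C1qa, C1qb, C1qc and C1s1 were 0.46, 0.61, 0.57 and 0.43, and 5AF was highest in the 3 C1q genes.

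Among the regulators, Clu, which encodes the secreted inhibitor clusterin, had normalized counts of 6575 in 4AF, 2069.9 in 5AF and 5836 in 6AF in KO at 30 weeks, and 1272, 775 and 991 in WT libraries 1AF, 2AF and 3AF, with an adjusted p of 2.96e-06 from DESeq2. In A537T it had 4934 in 7AF, 877 in 8AF and 6597 in 9AF. Clu was highest in the 4 libraries with seminal vesicle RNA, and the part of that RNA in its values was not tested. At 10 weeks, when the KO libraries and WT libraries 10AF and 11AF held seminal vesicle RNA, KO had 5185 in 13AF, 4424 in 14AF and 5990.2 in 15AF, and 3245, 2355 and 839 in WT libraries 10AF, 11AF and 12AF (adjusted p = 0.19 from limma and 0.0474 from DESeq2).

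Of the receptors, Itgam, the alpha chain of complement receptor 3 on myeloid cells, had 93.4 in 7AF, 147 in 8AF and 93.1 in 9AF in A537T at 30 weeks, and 24.9, 49.3 and 35.6 in WT libraries 1AF, 2AF and 3AF. The log2 fold change was 1.59 ± 0.31 (SE, limma adjusted p = 0.195), with an adjusted p of 0.00187 from DESeq2. Cr2, a receptor for C3 fragments on B cells, had 108 in 7AF, 11.6 in 8AF and 137 in 9AF, and 0, 2.29 and 0 in WT libraries 1AF, 2AF and 3AF (adjusted p = 0.204 from limma and 3.65e-05 from DESeq2). In KO at 30 weeks Cr2 had 187 in 4AF, 11.7 in 5AF and 178 in 6AF, so that it was highest in the libraries with seminal vesicle RNA in both lines. Of the alternative pathway and terminal genes, Cfd, the protease factor D of adipocytes, had 2617 in 16AF, 2478 in 17AF and 2181 in 18AF in A537T at 10 weeks, and 1565, 1710.3 and 1368 in WT libraries 10AF, 11AF and 12AF, a log2 fold change of 0.65 ± 0.15 (SE, limma adjusted p = 0.746) and an adjusted p of 0.0279 from DESeq2. All 8 adipocyte markers had log2 fold changes above 0 in the same libraries, with summed levels of 2944 to 3569.5 against 2260.2 to 3223, ranges that overlapped. C7, a terminal pathway protein, had log2 fold changes of 0.76 in A537T and -0.30 in KO at 30 weeks. In the list of lectin recognition genes, Colec12 had 0.59 and 0.48 and Masp1 -1.30 and -0.92, none passing by limma or DESeq2. Of the 9 listed, 4 were at or under 3 reads in every library.

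**Figure D4:**
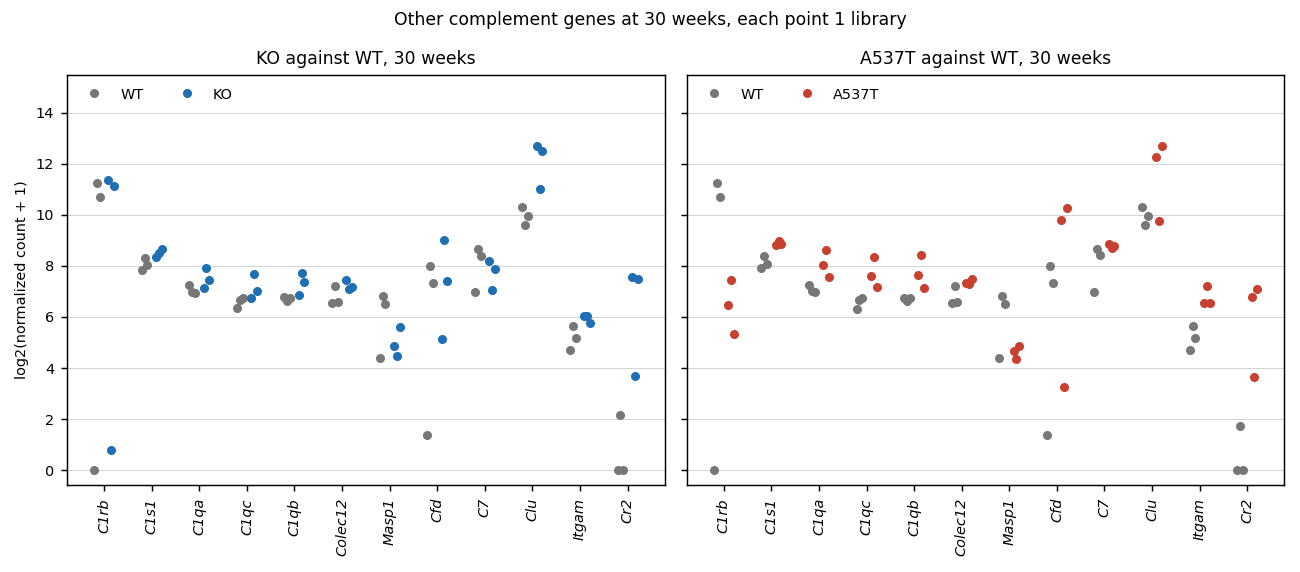
Level on the log2(normalized count + 1) scale (y axis) of other complement genes (x axis) in each library at 30 weeks, with WT in grey, KO in blue and A537T in red. In A537T the points of C1s1, C1qa, C1qb, C1qc, Itgam and Cr2 lie above all WT points. C1rb runs from 0 to 2405 normalized counts within WT.

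Genes known to induce complement, and markers of cells that make it, were measured beside these results. In A537T at 30 weeks 27 of 29 tested interferon response genes had a log2 fold change above 0, with a median of 0.69, and 19 were higher without overlap. The list summed to 3705 to 4878 normalized counts in A537T and 2555 to 2787 in WT. DESeq2 called 8 of them higher, and limma and edgeR 0, with 18 at an unadjusted p under 0.05 by limma. The shares of all genes were 9.18% higher without overlap, 3.22% called by DESeq2 and 13.6% with an unadjusted p under 0.05. Its 2 most abundant genes, Stat2 and Ifih1, had log2 fold changes of 0.04 and 0.16. In KO at 30 weeks 20 of 29 were above 0, with a median of 0.18. Of the acute-phase and NF-kB list 11 of 15 tested genes were above 0 in A537T, with a median of 0.30. None passed by limma, DESeq2 or edgeR, and 2 had an unadjusted p under 0.05 by limma, against 13.6% of all genes. Without overlap 3 were higher and 1 lower, against 9.18% and 9.4% of all genes. This list summed to 4317 to 4999 normalized counts in A537T and 3786 to 4265 in WT, also without overlap. Its most abundant genes Il6st and Stat3 had 0.30 and -0.21, and Il6 was at or under 3 reads in every library. In KO at 30 weeks the list summed to 4396 to 4761 against 3805 to 4286 in WT, again without overlap.

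Of 10 macrophage markers 9 had log2 fold changes above 0 in A537T at 30 weeks, with a median of 0.74 over the list. Of the 10, 4 were higher without overlap (9.18% of all genes) and 6 had an unadjusted p under 0.05 by limma (13.6% of all genes). They summed to 1461 to 2696 normalized counts against 1047 to 1486 in WT, ranges that overlapped. Lyz2 had a log2 fold change of 1.39 ± 0.34 (SE, limma adjusted p = 0.253) with an adjusted p of 0.00297 from DESeq2, while Mertk had -0.68. B and plasma cell markers summed to 2192 to 8843 against 638 to 1084, with Ighm and Igkc at 2.29 and 2.49. All 5 tested genes of this list were higher without overlap, against 9.18% of all genes. Fibroblast markers summed to 8076 to 8863 against 4923 to 7817, with 9 of 10 above 0, and Dcn and Col3a1 each at 0.40. None of the 10 macrophage, 10 B and plasma cell or 10 fibroblast markers was at 0 in all libraries of this comparison. Of the epithelial markers, 10 of 11 luminal genes had log2 fold changes below 0 in A537T, with a median of -0.33. Of the 11, 3 had an unadjusted p under 0.05 by limma, against 13.6% of all genes. In KO at 30 weeks 11 of 11 were below 0, while 4 of 5 basal genes were above 0 in A537T. All 7 endothelial markers and all 8 adipocyte markers were above 0 in A537T, with medians of 0.40 and 1.24. The sums of the luminal, basal, endothelial and adipocyte lists overlapped WT. Both the macrophage and the B and plasma cell sum were highest in 8AF, as C3 and Cfb were. T cell markers were few, with sums of 76.3 to 98.3 in A537T and 49.3 to 81 in WT. In KO at 30 weeks the B and plasma cell sums were 835 to 1053 and the fibroblast sums 6168 to 7129.8, both inside the WT range. The part of these cells in the levels of C3, Cfb and the other 5 genes was not tested.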

How the data were processed

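Total RNA of the ventral and lateral prostate lobes was sequenced (Illumina NovaSeq, TruSeq). The authors trimmed reads with Trim Galore 0.4.1 and cutadapt 1.18, aligned them with STAR 2.7.3a to GRCm38.p6 with GENCODE annotation, estimated gene counts with Salmon, which used strand, and normalized them with DESeq2 1.26. The deposited values are a signal, namely estimated gene counts that the authors divided by 1 size factor per library within each of 4 tables. Each table holds 1 mutant group of 3 and its WT group of 3. Separate tables of the authors' own comparisons (mean, log2 fold change, its error and s-value) were not used, and no column of other samples was present. WT libraries stand in both tables of their age, so comparisons at 1 age share controls.

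Library names carry no replicate number, and p-values measure the spread between these mice. The main test was limma 3.58.1 (R 4.3.3), with a trend in the prior variance, on values of log2(normalized count + 1) for genes whose mean was 10 or more. The Benjamini-Hochberg adjustment ran over every gene tested, at 0.05. Fold changes on this scale understate changes of low genes. Whole counts, called recovered reads, were obtained for at least 99.99% of values within 0.1 read, including 4 columns with a size factor near 1. They were tested with DESeq2 1.42.0 and edgeR 4.0.16. They are estimates, and those of a WT library differed between its 2 tables, as for C2 in 10AF with 79 and 75. The scripts were tested on simulated data. Gene symbols were found for 55107 of 55469 identifiers. Levels per kilobase used the longest annotated coding transcript. Alternatives were pseudocount 8, minimum means of 1 and 100, other scalings, no mean trend, a seminal vesicle or skeletal muscle score as covariate, and leaving out each library. Leaving out 2 libraries with seminal vesicle RNA together was chosen after seeing the data.

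The 7 genes and all lists were chosen with earlier results of these data known. The named genes are these 7 in every library, the 2 most abundant of each other list, other complement genes with an adjusted p under 0.05 by limma or DESeq2, the 3 genes most like each of the 7, and Elac2. The values of 1 other complement gene that this rule names are not reported here, although it is in the counts.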

Additional observations from a re-analysis of the deposited data

How the results depend on the processing

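No paired analysis was possible because the deposited columns carry no replicate numbers. The log2 fold changes of all 7 genes in A537T at 30 weeks, of C3, Cfb, C2, C1ra and Cd55 in KO at 30 weeks, of Cd55, Cfb and C2 in KO and of C3, C4b and Cfb in A537T at 10 weeks kept their direction under every alternative run, as did the age differences of C1ra, C2, Cd55 and Cfb in both lines and of C3 in A537T. C3 and Cfb in A537T at 30 weeks passed only with DESeq2 and without 8AF. At 10 weeks the fit without a mean trend called 1 gene for KO and 2 for A537T, and a minimum mean of 1 gave 2 in A537T at 10 weeks. DESeq2 called 715 and 90 at 10 weeks and 285 and 476 at 30 weeks, in KO and A537T, the counts of limma being 0. The seminal vesicle score gave 3 genes in A537T at 30 weeks, and leaving out 7AF and 9AF together, chosen after seeing the data, gave 1. Leaving out 1 library called 0 to 2886 genes for KO at 10 weeks, 0 to 50 for A537T at 10 weeks, 0 to 944 for KO at 30 weeks and 0 to 1224 for A537T at 30 weeks. The 2886 and 50 were without 10AF, the 944 without 5AF and the 1224 without 8AF. Leaving out 14AF gave 185 in KO at 10 weeks, 11AF and 12AF gave 1 and 2 in A537T at 10 weeks, and 1AF gave 2 for KO and 6 for A537T at 30 weeks.

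With the skeletal muscle score, C3 in KO at 10 weeks was -0.084, C4b -0.59 and Serping1 0.025, and in A537T C2 was 0.12, C1ra -0.031 and Serping1 -0.011. C4b in KO at 10 weeks was -0.0023 with DESeq2 and -0.0070 with edgeR. Scaling to the same total gave C1ra 0.10 and Serping1 0.20 in KO and C2 0.082 in A537T at 10 weeks, and Serping1 -0.0065 in KO at 30 weeks. Scaling outside the seminal vesicle and skeletal muscle lists gave C1ra 0.091 and Serping1 0.20 in KO at 10 weeks, and quantile normalization gave Serping1 0.065. These scalings moved the median of all genes in KO at 10 weeks from -0.01 to as much as 0.20. The age differences in KO were -0.00069 for C3, -0.10 for C4b and -0.21 for Serping1 when scaled to the same total, and -0.031 for Serping1 with quantile normalization. Leaving out 1 library turned values that were near 0. In KO at 10 weeks C3 ran from -0.061 to 0.33, C4b from -0.12 to 0.32, C1ra from -0.25 to 0.017 and Serping1 from -0.13 to 0.18. In A537T at 10 weeks C2 ran from -0.26 to 0.060 and Cd55 from -0.12 to 0.25, and in KO at 30 weeks C4b from -0.20 to 0.42 and Serping1 from -0.15 to 0.10. Age differences ran from -0.055 to 0.41 for C3, -0.23 to 0.39 for C4b and -0.18 to 0.13 for Serping1 in KO, and from -0.40 to 0.070 for C4b and -0.30 to 0.056 for Serping1 in A537T. The cause was not tested. The fewest reads were those of C2, with 21 in 15AF, so its values are the least precise of the 7 in counting error.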

Other observations

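C1rb and C1s2, the duplicated neighbours of C1ra and C1s1, varied between libraries of a single group far more than the 7 genes did. C1rb had 2235, 189 and 0 normalized counts in WT libraries 10AF, 11AF and 12AF at 10 weeks and 0, 2405 and 1668 in WT libraries 1AF, 2AF and 3AF at 30 weeks. C1s2 had 346, 37.5 and 0 and 0, 249 and 193 in the same libraries. In KO at 30 weeks C1rb had 2663 in 4AF, 0.734 in 5AF and 2227 in 6AF and C1s2 964 in 4AF, 0 in 5AF and 712 in 6AF, and in A537T C1rb had 88.4 in 7AF, 173 in 8AF and 39.4 in 9AF and C1s2 29.1 in 7AF, 54.9 in 8AF and 20.8 in 9AF. C1rb was at 0 reads in 12AF and 1AF and C1s2 in 12AF, 1AF and 5AF. C1ra ran only from 98.1 to 348 over all libraries, and in 5AF, with about 1 read of C1rb, it had 187.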
